A study of Mus musculus with 4 samples.

Results

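The 10 genes described here encode chaperones and folding factors of the endoplasmic reticulum (ER) and Xbp1, a transcription factor that controls many of them. They were chosen by symbol: Hspa5, Hsp90b1, Calr, Pdia4, Hyou1, Herpud1, Sdf2l1, Manf, Creld2 and Xbp1. Every entry of the count table whose Ensembl gene identifier carries one of these symbols in GENCODE M21 was used, which gave 32 isoforms of the 46637 that name a gene, and 10 of 14949 genes. All 10 passed the filter on low counts.

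Long reads of PCR-amplified cDNA from a Nanopore sequencer were used to ask whether Tut1 regulates mRNA splicing in mouse neural stem cells. The cells were primary cultures from E12.5 neocortex, grown as neurospheres, and were given lipid nanoparticles (LNP) for 3 days. There was 1 library per genotype. The control, Tut1f/f, carries loxP sites around part of Tut1 and received LNP without Cre mRNA, so no gene is deleted. Tut1f/f;Cre received LNP with mRNA for the Cre recombinase and is labelled a Tut1 knockout. Trp53f/f;Cre has no loxP sites in Tut1 by its label, carries loxP sites in Trp53 (labelled p53), the gene of the tumour suppressor p53, and received the same Cre mRNA. Tut1f/f;Trp53f/f;Cre carries both sets of loxP alleles, received Cre mRNA and is labelled a double knockout. No library combined Cre mRNA with undeleted alleles, so in this design Cre mRNA cannot be told apart from the deletions, and the control of every Cre comparison is the same Tut1f/f library. Where 4 values follow each other, they run from the control through Tut1f/f;Cre, then Trp53f/f;Cre, to the double knockout label. How many embryos gave the cells of a library, and whether the libraries came from 1 culture, was not stated.

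Proteins that enter the ER fold there with the help of chaperones. BiP, the product of Hspa5, binds unfolded chains and also holds the stress sensors of the ER inactive. When unfolded protein builds up, the sensors IRE1, PERK and ATF6 are released: IRE1 removes a short segment from Xbp1 mRNA so that the active factor XBP1s is made, and XBP1s and cleaved ATF6 raise the transcription of chaperone genes. This unfolded protein response is a normal part of secretory and membrane protein synthesis and is also active in neural progenitors.

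The libraries held between 2863392 and 4244467 reads that name a gene, of which the 10 genes took 5250, 2733, 3431 and 3143. Tut1f/f stood apart from the rest: 17.2% of its reads named no gene, against 27.3% to 30.2% in the other libraries, and 1 ribosomal RNA gene, CT010467.1, took 18.7% of its gene reads, against 5.46% to 9.75%. Without CT010467.1, and with the scaling of libraries computed again, the number of the 10 genes past the ratio rule described below stayed at 4, 2 and 3 in the comparisons with Tut1f/f. That scaling depends little on any single gene, so this check does not show that the difference in ribosomal RNA is without effect. The part of the reads without a gene was not tested. The targeted genes were read first. Trp53 had 175, 67, 10 and 19 reads, lowest where its deletion is labelled. Tut1 had 37, 11, 14 and 27 reads in the same order. At 9.15 CPM (normalised read counts scaled to equal library totals, 95% Poisson interval 6.03 to 13.3), Tut1 in the double knockout by label was at the level of the control (9.30, 6.55 to 12.8), while Trp53f/f;Cre, labelled without a Tut1 deletion, had 4.02 CPM (2.20 to 6.74). Tut1f/f;Cre had 3.63 CPM (1.81 to 6.50), lower than the control as its label has it. The study states that Cre removes exon 2 of Tut1, which a gene total does not isolate. The totals of Tut1f/f;Trp53f/f;Cre and Trp53f/f;Cre thus go against the labels without checking the deletion itself, and Tut1 status below means the label only. Xist, the RNA of the inactive X chromosome in female cells, was read in Tut1f/f;Cre (44 reads) and Trp53f/f;Cre (49) and had 0 reads in Tut1f/f and Tut1f/f;Trp53f/f;Cre, whereas the Y-linked Eif2s3y had 155 and 60 reads in those libraries and 0 in the former. Reads of sex-linked genes thus split the libraries in pairs that do not follow either label. Markers of neural stem cells were read for 11 of 12 list genes, Msi1 having none, and summed to between 11624 and 13409 CPM in every library. Neuronal markers (7 of 8 with an entry) summed to between 77.2 and 95.6 CPM, endothelial markers (0 of 4) had no reads, microglial markers (1 of 5) at most 3 and fibroblast markers (1 of 4) at most 1. Astrocyte markers (4 of 5, Gfap having no entry) summed to 55.3, 16.2, 13.5 and 39.7 CPM, and markers of the oligodendrocyte lineage (6 of 6) to 354, 585, 676 and 475 CPM.

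Hspa5 and Herpud1 were lower in each library given Cre mRNA, and had the lowest ratios of the 10 genes in Tut1f/f;Cre and Trp53f/f;Cre. Hspa5 (chr2:34771970-34777547, plus strand, mm10) had 826 reads in the control, or 208 CPM (95% Poisson interval 194 to 222). The 3 libraries given Cre mRNA had 248, 271 and 344 reads, or 81.9 (72.0 to 92.7), 77.8 (68.8 to 87.6) and 117 CPM (105 to 130). The control lay above the rest, Tut1f/f;Cre and Trp53f/f;Cre overlapped, and Tut1f/f;Trp53f/f;Cre lay between. CPM here are scaled by TMM to the reads that name a gene. Reads came from PCR without molecular identifiers, so every interval covers only the error of counting. With 1 library per group, differences between libraries could not be checked against replicates, and in bulk RNA fewer cells of a type and less RNA per cell cannot be told apart. The log2 ratio of Hspa5 to Tut1f/f was -1.34 in Tut1f/f;Cre (exact conditional 95% interval -1.55 to -1.14), -1.42 in Trp53f/f;Cre (-1.62 to -1.22) and -0.83 in Tut1f/f;Trp53f/f;Cre (-1.02 to -0.65), that is 2.54-fold, 2.67-fold and 1.78-fold lower. The summed astrocyte markers have a similar order over the libraries, which rests on Aldh1l1 (187, 16, 11 and 71 reads), while S100b (10, 16, 10 and 21) and Slc1a2 (23, 13, 23 and 24) did not share it. Their part in the result was not tested.

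Herpud1 (chr8:94386438-94395377, plus strand), an ER membrane protein of the degradation machinery that ER stress strongly induces, had 114, 17, 26 and 30 reads. These were 28.7 CPM (23.6 to 34.4) in the control, then 5.61 (3.27 to 8.99), 7.46 (4.87 to 10.9) and 10.2 (6.86 to 14.5). The 3 libraries given Cre mRNA overlapped in their intervals and all lay below the control. Herpud1 was 5.11-fold, 3.84-fold and 2.82-fold lower in that order, with log2 ratios of -2.35 (-3.18 to -1.61), -1.94 (-2.62 to -1.32) and -1.50 (-2.13 to -0.90). Not counted here were 4, 19, 6 and 4 reads that named no gene at this locus, which overlaps 1 other annotated gene. Hyou1 (chr9:44379490-44392369, plus strand), a large chaperone that exchanges the nucleotide of BiP, had 76, 28, 39 and 29 reads, or 19.1, 9.24, 11.2 and 9.83 CPM. Its log2 ratios to the control were -1.05 (-1.73 to -0.41), -0.77 (-1.37 to -0.20) and -0.96 (-1.63 to -0.32), all below 0 beyond counting error and alike within it.

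**Figure D1:**
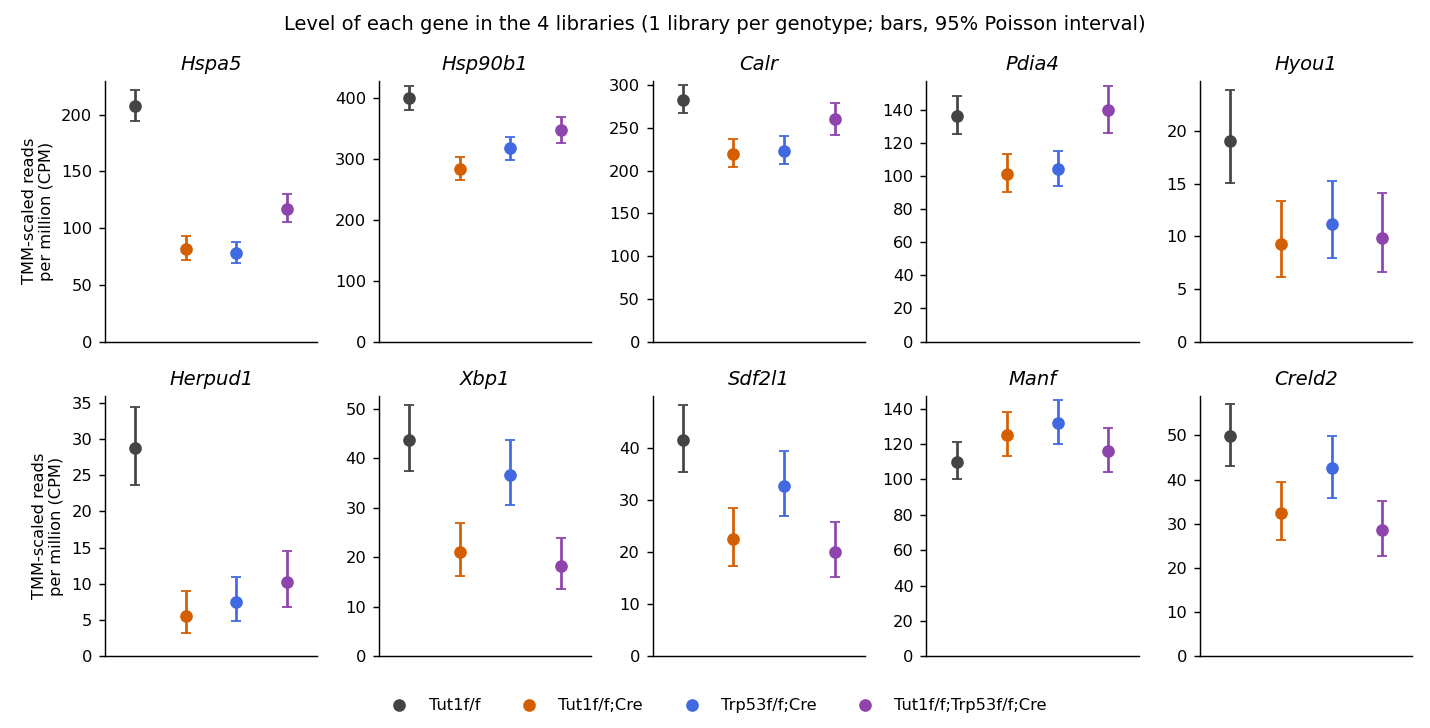
TMM-scaled CPM of each of the 10 genes (1 panel each, vertical axis from 0) in the 4 libraries, 1 point per library with its 95% Poisson interval. Hspa5 and Herpud1 are highest in Tut1f/f, at 208 and 28.7 CPM, while Xbp1, Sdf2l1 and Creld2 are lowest in the libraries labelled as Tut1 deletions.

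The promoters of Hspa5 and Herpud1 each hold an element through which the unfolded protein response is known to act, and are shown for that reason. The sequences come from RefSeq promoters (GRCm38.p6), both on the plus strand. Herpud1 is shown for the 250 bases before its RefSeq start, at chr8:94386179-94386428. Hspa5 is shown for the element with 5 bases on each side, at chr2:34772020-34772048, since its RefSeq start at chr2:34772090 lies inside the GENCODE transcript Hspa5-201. Capitals mark the letters CCAAT and CCACG, separated by 9 bases, of the ER stress response element (ERSE) in Hspa5, and the letters ATTGG and CCACG, separated by 1 base, of its second form (ERSE-II) in Herpud1.
Hspa5: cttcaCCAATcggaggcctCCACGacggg
Herpud1: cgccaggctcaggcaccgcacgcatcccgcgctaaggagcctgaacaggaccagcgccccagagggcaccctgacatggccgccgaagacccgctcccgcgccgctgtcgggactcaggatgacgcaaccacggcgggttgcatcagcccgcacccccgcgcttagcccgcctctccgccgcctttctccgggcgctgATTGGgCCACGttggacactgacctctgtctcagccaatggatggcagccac
Both strands of the promoters were searched over 300 bases, 250 before the start and 50 after. The ERSE was in the promoters of Hspa5, Hsp90b1, Calr and Creld2, 4 of the 8 genes in the RefSeq table (Hyou1 and Manf were not in it), against 0.119% of all 32851 promoters. In Hspa5 it spans bases 65 to 47 before the start. Hsp90b1 held it on each strand. ERSE-II was in Herpud1 alone among the 8, at bases 52 to 42 before the start, against 0.0365% of all promoters, and no promoter of these genes held both. The XBP1-binding letters TGACGTGG were in none of the 8 and in 0.676% of all. A match is a description of letters and shows no binding. Since the response is already known to act through the ERSE and ERSE-II, the shares above are a description and no test.

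The other luminal chaperones had ratios nearer to no change. Hsp90b1 (GRP94 at chr10:86690209-86705509, minus strand, the HSP90 of the ER) ranged from 284 CPM in Tut1f/f;Cre to 400 in Tut1f/f, Calr (calreticulin at chr8:84841850-84846934, minus strand, the lectin chaperone that also stores calcium) from 220 in Tut1f/f;Cre to 283 in Tut1f/f, and Pdia4 (ERp72 at chr6:47796141-47813430, minus strand, a protein disulphide isomerase) from 101 in Tut1f/f;Cre to 140 in Tut1f/f;Trp53f/f;Cre. In Tut1f/f;Cre against Tut1f/f the log2 ratios were -0.50 (-0.62 to -0.38) for Hsp90b1, -0.37 (-0.51 to -0.23) for Calr and -0.42 (-0.63 to -0.22) for Pdia4. In Trp53f/f;Cre they were -0.34, -0.34 and -0.38, with intervals that exclude no change. In Tut1f/f;Trp53f/f;Cre only Hsp90b1, at -0.21 (-0.32 to -0.09), kept an interval below 0, while Calr had -0.12 (-0.26 to 0.01) and Pdia4 0.04 (-0.15 to 0.23). Manf (chr9:106838312-106891979, minus strand), a secreted factor that stabilises BiP-client complexes and is protective for neurons, was not lower in any library. It had 438, 378, 461 and 341 reads (110, 125, 132 and 116 CPM), and its log2 ratios to the control were above 0 at 0.18 (-0.02 to 0.38), 0.26 (0.07 to 0.46) and 0.07 (-0.14 to 0.28). The Manf locus overlaps 4 other annotated genes, and 18 entries there named no gene.

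Counted by a rule, a ratio of at least 2-fold with an interval that excludes no change, 4 of the 10 genes were lower in Tut1f/f;Cre than in Tut1f/f (Hspa5, Hyou1, Herpud1 and Xbp1), where 13.3% of 9882 genes tested were lower. In Trp53f/f;Cre 2 were lower (Hspa5 and Herpud1), against 15.3% of all genes, and in Tut1f/f;Trp53f/f;Cre 3 (Herpud1, Xbp1 and Sdf2l1), against 9.72%. None of the 10 was higher by the rule in these comparisons. The count in Tut1f/f;Cre rested on ratios near the threshold: scaled by total gene reads alone, which moves the median of all genes in the Cre contrast to 0.12, 2 genes stayed past the rule, Hspa5 and Herpud1. With plain Ensembl transcripts only, which for Hspa5 leaves Hspa5-202 and 1 read of Hspa5-203, Hspa5 (-0.73) and Hyou1 (-0.88) were not past the rule in Tut1f/f;Cre, and Hspa5 was at -0.10 in Tut1f/f;Trp53f/f;Cre. Calr was then at 3.39 in Tut1f/f;Cre, a value that rests on Calr-204, a retained-intron entry with 8 reads against 1 in the control, and says nothing of the bulk of Calr reads. The median log2 ratio of the 10 genes was -0.75, -0.34 and -0.82 in the 3 comparisons, against -0.01, -0.02 and -0.01 over all genes tested. In CPM, 8 of the 10 (all but Manf and Pdia4) were below Tut1f/f in every library given Cre mRNA, against 37.5% of all genes. These comparisons share the Tut1f/f library.

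**Figure D2:**
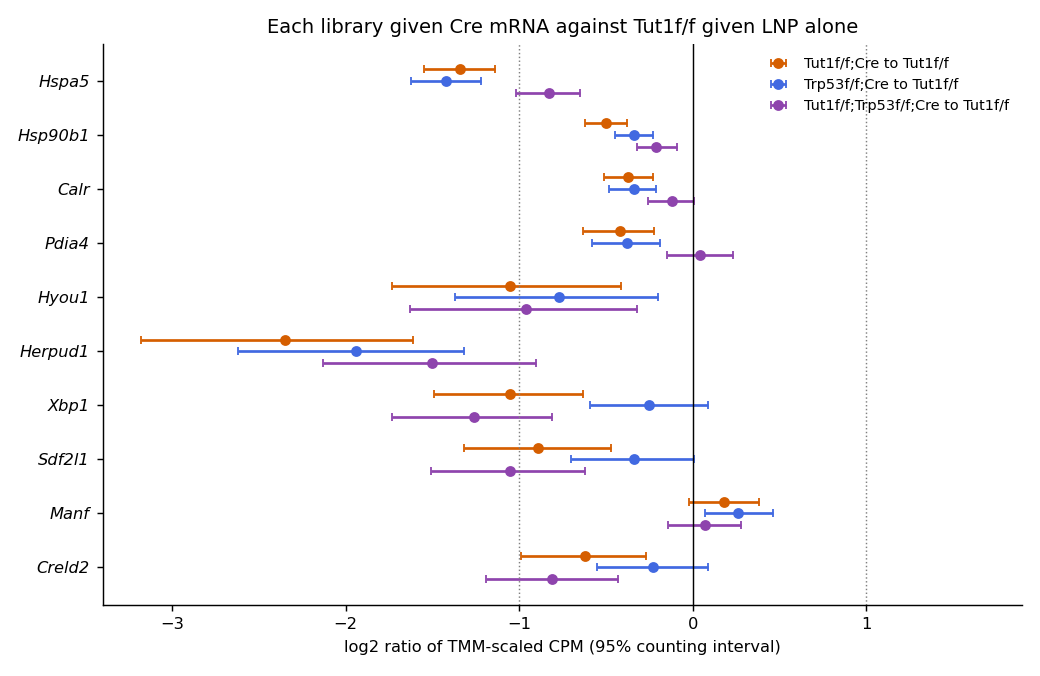
Log2 ratio of TMM-scaled CPM (horizontal axis) of each gene in the 3 libraries given Cre mRNA against Tut1f/f, with exact 95% counting intervals; dotted lines mark 2-fold. Herpud1 reaches -2.35 and Hspa5 -1.42, and the points of Xbp1 in Trp53f/f;Cre (-0.25) and of Manf in every library lie near 0 or above it.

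Fitted over all genes with edgeR's quasi-likelihood test, with the 3 libraries given Cre mRNA taken as replicates against the single Tut1f/f library, Hspa5 and Herpud1 fell past an adjusted p of 0.05 and 2-fold. Hspa5 fell by 1.17 on the log2 scale (SE 0.253, adjusted p = 0.00985) and Herpud1 fell by 1.89 (SE 0.339, adjusted p = 0.00438), lower in 3 of 3 libraries each. They are 2 of 10, where 8.40% of all genes were called lower. Over all genes 830 were called lower and 785 higher, a split that became 649 and 981 when libraries were scaled by total gene reads. Hyou1 (-0.92, adjusted p = 0.0630), Xbp1 (-0.77, 0.140), Sdf2l1 (-0.72, 0.121) and Creld2 (-0.53, 0.209) did not pass. DESeq2 called the same pair, Hspa5 with an adjusted p of 0.00359 and Herpud1 with 0.00946. Without Tut1f/f;Cre, Hspa5 lost its call in edgeR (-1.10, adjusted p = 0.0522) and Herpud1 alone was called. Without Trp53f/f;Cre, 4 genes were called, Xbp1 (-1.16, adjusted p = 0.00455) and Hyou1 (-1.01, 0.0467) besides. With plain Ensembl transcripts only, which drops the leading Hspa5 entry, Hspa5 was at -0.66 (adjusted p = 0.284). The p-values measure only the spread between these libraries, and the contrast cannot be told apart from the Tut1f/f library itself.

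Xbp1, Sdf2l1 and Creld2 showed another order, following the Tut1 label. Xbp1 (chr11:5520659-5525893, plus strand) had 174, 64, 128 and 54 reads. These were 43.7 CPM (37.5 to 50.8) in the control, then 21.1 (16.3 to 27.0), 36.7 (30.6 to 43.7) and 18.3 (13.7 to 23.9). The intervals of both libraries with a deleted Tut1 label lay below those of both without one, and within each pair the intervals overlapped. Tut1f/f;Cre was 2.07-fold lower than Tut1f/f (log2 ratio -1.05, -1.49 to -0.63), and Tut1f/f;Trp53f/f;Cre was 2.01-fold lower than Trp53f/f;Cre (-1.01, -1.49 to -0.54). These 2 comparisons have no library in common.

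Sdf2l1 (chr16:17130138-17132383, minus strand), a partner of BiP-bound co-chaperones that limits aggregation of unfolded proteins, had 165, 68, 114 and 59 reads, with CPM intervals of 35.4 to 48.3, 17.4 to 28.5, 27.0 to 39.3 and 15.2 to 25.8. Its log2 ratios were -0.89 (-1.32 to -0.47) and -0.71 (-1.19 to -0.24) in the same 2 comparisons. Creld2 (chr15:88819646-88826683, plus strand), a secreted ER stress-inducible protein with disulphide isomerase activity, had 198, 98, 148 and 84 reads (49.8, 32.4, 42.5 and 28.5 CPM), with ratios of -0.62 (-0.99 to -0.27) and -0.58 (-0.98 to -0.18). For both genes the libraries with a deleted Tut1 label were the lower pair, by less than 2-fold in these 2 comparisons. Sdf2l1 in Tut1f/f;Trp53f/f;Cre was 2.07-fold below Tut1f/f. Unlike those of Xbp1, the CPM intervals of Tut1f/f;Cre and Trp53f/f;Cre overlapped for both genes, at 26.3 to 39.4 and 35.9 to 49.9 for Creld2. Against Tut1f/f, Trp53f/f;Cre differed by less than counting error in all 3 genes: -0.25 (-0.59 to 0.09) for Xbp1, -0.34 (-0.70 to 0.01) for Sdf2l1 and -0.23 (-0.55 to 0.09) for Creld2. Tut1f/f;Trp53f/f;Cre and Tut1f/f;Cre did not differ beyond counting error either, with ratios of -0.21 (-0.76 to 0.34), -0.17 (-0.70 to 0.36) and -0.18 (-0.62 to 0.25).

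These 3 of the 10 genes were lower, with intervals that exclude no change, in both comparisons by Tut1 label, against 2.52% of all genes tested. By the 2-fold rule 1 of the 10 (Xbp1) was lower in Tut1f/f;Trp53f/f;Cre against Trp53f/f;Cre, where 7.24% of genes passed in either direction. With total gene reads as the scale none passed, Xbp1 being close to 2-fold. None passed in Tut1f/f;Trp53f/f;Cre set against Tut1f/f;Cre (4.49% of all genes) or in Tut1f/f;Cre against Trp53f/f;Cre (3.35%), though Xbp1 was at -0.80 (-1.25 to -0.35) in the latter. When edgeR was fitted to all 4 libraries with terms for the Tut1 and Trp53 labels, with 1 residual degree of freedom, none of the 10 was called for Tut1 (0% of all genes) or for Trp53 (0.0101%), and none had an unadjusted p under 0.05 in either edgeR or DESeq2. Over all genes, 187 had an unadjusted p under 0.05 for Tut1 in edgeR and 70 in DESeq2, which also called 0, and for Trp53 they numbered 153 and 62. The edgeR coefficients for Tut1 were -1.03 (SE 0.556) for Xbp1, -0.80 (SE 0.555) for Sdf2l1 and -0.60 (SE 0.534) for Creld2. That of Herpud1 was -0.96 (SE 0.697), but Herpud1 was not lower in both comparisons by Tut1 label. Its log2 ratio in Tut1f/f;Trp53f/f;Cre to Trp53f/f;Cre was 0.45 (-0.36 to 1.26).

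The promoters of these 3 genes are shown for comparison with that of Herpud1, again as the 250 bases before the RefSeq start of GRCm38.p6, in their own direction. Xbp1 is at chr11:5520391-5520640 on the plus strand, Sdf2l1 at chr16:17132384-17132633 on the minus strand and Creld2 at chr15:88819396-88819645 on the plus strand. Capitals in Creld2 mark the ERSE, read here as CGTGG and ATTGG because it lies on the opposite strand.
Xbp1: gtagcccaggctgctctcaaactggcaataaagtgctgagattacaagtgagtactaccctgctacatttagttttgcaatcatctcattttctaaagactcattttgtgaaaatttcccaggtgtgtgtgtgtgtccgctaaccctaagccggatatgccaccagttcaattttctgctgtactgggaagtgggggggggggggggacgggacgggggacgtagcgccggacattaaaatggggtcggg
Sdf2l1: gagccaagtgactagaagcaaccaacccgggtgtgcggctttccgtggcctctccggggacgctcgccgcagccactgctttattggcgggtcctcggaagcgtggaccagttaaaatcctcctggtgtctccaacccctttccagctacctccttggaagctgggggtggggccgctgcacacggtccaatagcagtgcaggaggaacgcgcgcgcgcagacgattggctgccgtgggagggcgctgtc
Creld2: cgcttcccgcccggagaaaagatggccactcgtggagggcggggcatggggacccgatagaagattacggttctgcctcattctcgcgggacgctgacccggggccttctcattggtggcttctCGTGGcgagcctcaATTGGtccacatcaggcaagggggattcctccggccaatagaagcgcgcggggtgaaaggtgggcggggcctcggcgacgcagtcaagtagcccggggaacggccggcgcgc
Neither Xbp1 nor Sdf2l1 held the ERSE, ERSE-II or TGACGTGG in this window. GC content over the 250 bases was 50.4% in Xbp1, 64.0% in Sdf2l1 and 66.0% in Creld2, and 69.2% in Herpud1.

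**Figure D3:**
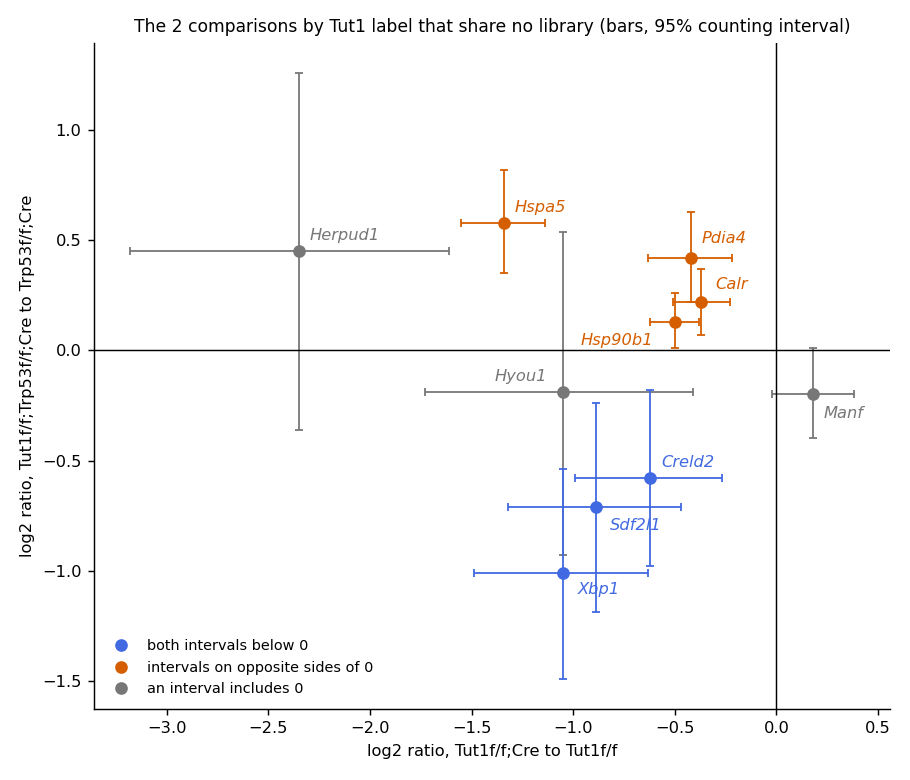
Log2 ratio of TMM-scaled CPM in Tut1f/f;Cre to Tut1f/f (horizontal axis) and in Tut1f/f;Trp53f/f;Cre to Trp53f/f;Cre (vertical axis), 1 point per gene with 95% counting intervals on both axes. Xbp1, Sdf2l1 and Creld2 lie below 0 on both axes, and Hspa5, Pdia4, Calr and Hsp90b1 lie below 0 on the horizontal and above 0 on the vertical axis.

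Hspa5, Hsp90b1, Calr and Pdia4 went in opposite directions in the same 2 comparisons. They were lower in Tut1f/f;Cre than in Tut1f/f, but higher in Tut1f/f;Trp53f/f;Cre than in Trp53f/f;Cre, by log2 ratios of 0.58 (0.35 to 0.82) for Hspa5, 0.13 (0.01 to 0.26) for Hsp90b1, 0.22 (0.07 to 0.37) for Calr and 0.42 (0.22 to 0.63) for Pdia4. Opposite directions beyond counting error in these comparisons were found for 16.6% of all genes, 4 of these 10. The same order separates the libraries by Xist: 5 of the 10 (these 4 and Herpud1) were lower in both libraries with Xist reads than in both without, against 26.4% of all genes, and Manf was higher in both. Sex and genotype cannot be told apart there.

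Isoforms were resolved for part of the genes. Xbp1, Sdf2l1 and Creld2 had 1 entry each, Xbp1-201, Sdf2l1-201 and Creld2-201, which held all their reads. The entries of Hspa5-201, Calr-201, Manf-202 and Hyou1-204 carry the Ensembl identifier with a suffix whose meaning is not given in the sources used here, and are called by the identifier. Calr-201 held between 96.4% and 98.4% of Calr reads, Manf-202 between 99.2% and 99.6%, and Pdia4-201 between 93.3% and 97.1%. Hsp90b1-201 held 81.9%, 73.7%, 73.2% and 78.2%, and most of the remainder went to an isoform named by a read (12.6% to 16.1%). Herpud1-205 held 70.2% of 114 reads in the control and 64.7% of 17, 57.7% of 26 and 76.7% of 30 reads in the others, with Wilson 95% intervals as wide as 41.3% to 82.7%. Hyou1-201 held between 67.1% and 79.3%. A further Hsp90b1 isoform named by a read held 2.45%, 6.05%, 6.07% and 4.30%, and was 3.6 percentage points above the control in both Tut1f/f;Cre and Trp53f/f;Cre (adjusted p = 3.6e-04 and 6.8e-05 by Fisher's exact test). Hsp90b1-201 differed from the control by -8.2 and -8.7 points in the same libraries (adjusted p = 8.1e-05 and 3.5e-06 by Fisher's exact test), also under the 10 points required for a call. None of the tested isoforms of Hsp90b1, Calr, Pdia4, Hyou1, Herpud1 or Manf was called by usage (two-sided Fisher's exact test of reads, adjusted over all isoforms tested, at 10 or more percentage points of difference), a test that compares libraries and not conditions. With 17 reads in Tut1f/f;Cre, Herpud1 was below the minimum of 20 and was not tested in the pairs with that library.

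Xbp1-201 is the annotated transcript that still contains the segment removed by IRE1, and no entry without it was listed, so the share of spliced Xbp1 mRNA cannot be read from the table and the differences above are in total Xbp1 mRNA. The segment is shown in capitals, with 20 bases on each side, at chr11:5524259-5524324 (mm10, plus strand), in exon 4 of 5.
Xbp1-201: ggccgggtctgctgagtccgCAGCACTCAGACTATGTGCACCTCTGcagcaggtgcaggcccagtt
A script found it as the pair of CNGCAG loops 26 bases apart whose removal lengthens the reading frame, from 267 to 371 codons. Entries that named no gene at this locus held 0, 2, 0 and 2 reads.

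Hspa5 was the gene among the 10 whose isoform usage followed the Tut1 label. Hspa5-202 made up 22.2% of 826 reads in the control (Wilson 95% interval 19.5% to 25.1%), 33.9% of 248 in Tut1f/f;Cre (28.3% to 40.0%), 17.7% of 271 in Trp53f/f;Cre (13.6% to 22.7%) and 36.9% of 344 in the double knockout label (32.0% to 42.1%). The intervals of the libraries with a deleted Tut1 label lay above those of both others. The leading entry, which carries the identifier of Hspa5-201 with the suffix, made up 76.6%, 63.7%, 74.2% and 60.8% in the same order, the reverse pattern. In CPM, Hspa5-202 had 46.0, 27.7, 13.8 and 43.0, and the Hspa5-201 entry 159, 52.2, 57.7 and 70.8, so Hspa5-202 in Tut1f/f;Trp53f/f;Cre was at the level of the control while Hspa5-201 was not.

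Both Hspa5 isoforms were called in Tut1f/f;Cre against Tut1f/f, where 8.66% of isoforms tested were called. Hspa5-202 was 11.7 percentage points higher (adjusted p = 0.00415 by Fisher's exact test) and the difference for Hspa5-201 was -12.9 points (adjusted p = 0.00136). Both were called in Tut1f/f;Trp53f/f;Cre against Trp53f/f;Cre too, with Hspa5-202 19.2 points higher (adjusted p = 4.9e-05) and a difference of -13.4 points for Hspa5-201 (adjusted p = 0.0296), against 1.24% of isoforms. Calls in the same direction in both comparisons were made for 27 of 15560 isoforms, or 0.174%, and 2 of the 27 were these. Both are shares of the same gene's reads and hold nearly all of them, so these 2 calls are not independent. Tut1f/f;Trp53f/f;Cre set against Tut1f/f called both as well (differences of 14.8 and -15.9 points, 6.49% of all called). Trp53f/f;Cre against Tut1f/f called none of the 23 isoforms of these genes tested (9.12% of all), with a difference of -4.4 points for Hspa5-202. Tut1f/f;Trp53f/f;Cre and Tut1f/f;Cre, both with a deleted Tut1 label, differed by 3.0 points with no call (0.150% of all), and Tut1f/f;Cre had Hspa5-202 16.2 points above Trp53f/f;Cre, the single call of that pair (adjusted p = 0.0103, 0.222% of all). No difference reached 20 points.

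As annotated in GENCODE M21, Hspa5-202 and Hspa5-201 differ at both ends and share their coding sequence. Both encode 655 codons from the same start at chr2:34772322 (mm10). Hspa5-201 has 9 exons and Hspa5-202 has 8, because Hspa5-202 keeps the first intron of Hspa5-201, 82 bases at chr2:34772147-34772228 within the 5′ UTR, 93 bases ahead of the start codon. Hspa5-202 also starts further downstream, at chr2:34772095 rather than chr2:34771970, and ends 1016 bases earlier. The junctions of that intron are printed because its retention separates the annotated isoforms, with the first and last 2 bases of the intron in capitals, at chr2:34772137-34772164 and chr2:34772211-34772238.
donor side: tgtgtgtgagGTaagcgccgcggcctgc
acceptor side: ggcccctgtcgccctcAGaccagaaccg
The intron was 69.5% GC. The table gives no positions for the Hspa5-201 entry, and how it differs from the annotated transcript is not known here, so whether a read was assigned to Hspa5-202 by the intron or by its 3′ end cannot be told apart.

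**Figure D4:**
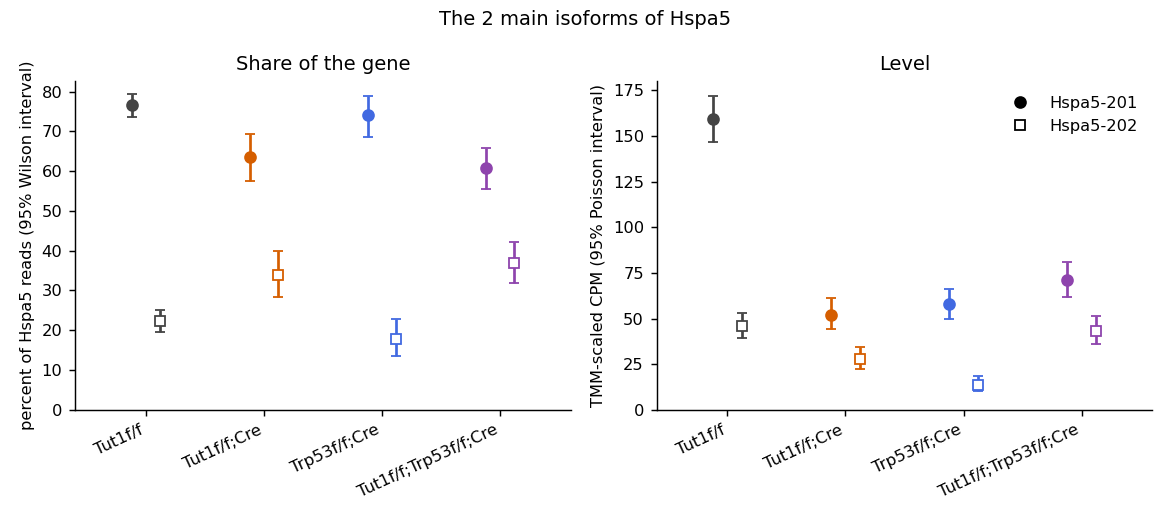
Share of Hspa5 reads in percent (left, 95% Wilson interval) and level in TMM-scaled CPM (right, 95% Poisson interval) of Hspa5-201 (filled circles) and Hspa5-202 (open squares) in the 4 libraries. Hspa5-202 takes 33.9% and 36.9% in the libraries with a deleted Tut1 label, against 22.2% and 17.7% in the others.

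Genes from 4 other ER lists lay on both sides of the control. Of the other chaperones and folding enzymes, 24 of 26 were tested: 4 were lower and none higher by the ratio rule in Tut1f/f;Cre against Tut1f/f, with a median log2 ratio of -0.40. Over all 9882 genes 1314 were lower (13.3%) and 1255 higher, and the counts of these lists are to be read against those shares. P4hb, the main protein disulphide isomerase, had 1015, 220, 255 and 272 reads, with log2 ratios to Tut1f/f of -1.81 (-2.03 to -1.60), -1.80 (-2.01 to -1.60) and -1.47 (-1.67 to -1.27). The disulphide isomerase Pdia6 was at -1.25, -1.35 and -0.44 and the lectin chaperone Canx at -1.20, -1.37 and -0.94. Canx and P4hb were called lower in the edgeR fit of Cre mRNA, 2 of the 24 tested, where 8.40% of all genes were called lower.

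Of the genes of ER-associated degradation, 19 of 24 were tested, 3 of them lower and none higher in Tut1f/f;Cre (median -0.21), near the 13.3% of all genes. Aup1, Edem2 and Ube2g2 were called lower in the edgeR fit of Cre mRNA, 3 of the 19 tested, where 8.40% of all genes were called lower. Aup1, a lipid droplet and ER protein that recruits ubiquitin-conjugating enzymes, had a log2 ratio of -1.46 (-1.89 to -1.05) in Tut1f/f;Cre against Tut1f/f and of 1.01 (0.55 to 1.49) in Tut1f/f;Trp53f/f;Cre against Trp53f/f;Cre, past the rule in opposite directions. Translocation and glycosylation genes, 23 of 23 tested, had 1 lower and 1 higher in Tut1f/f;Cre: the oligosaccharyltransferase subunit Ddost at -1.12 (-1.36 to -0.88) and the translocon partner Sec63 at 1.65 (1.07 to 2.25). In the edgeR fit of Cre mRNA, 1 of the 23 tested was called lower (Ddost) and 1 higher (Sec63), against 830 lower and 785 higher of all 9882 genes.

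Among the sensors and transcription factors of the response itself, 18 of 20 were tested, and 3 were lower and 3 higher in Tut1f/f;Cre, with a median of 0.21. The median was -0.12 in Trp53f/f;Cre and 0.14 in Tut1f/f;Trp53f/f;Cre. Atf4, the transcription factor translated downstream of PERK, had 602, 184, 245 and 291 reads, and its log2 ratios to the control were -1.32 (-1.56 to -1.08), -1.11 (-1.33 to -0.89) and -0.62 (-0.82 to -0.41). Atf6, the membrane-bound sensor and transcription factor, had 29, 53, 56 and 63 reads and was higher by the rule in all 3 libraries, at 1.26 (0.58 to 1.97), 1.14 (0.47 to 1.84) and 1.55 (0.89 to 2.24). Mbtps2, the protease that releases ATF6, was at 1.22, 1.13 and 0.82, and Nfyc, a subunit of the factor NF-Y that binds the CCAAT part of the ERSE, at -1.24, -1.22 and -0.83. In the edgeR fit of Cre mRNA, 1 of the 18 tested was called lower (Nfyc) and 2 higher (Atf6 and Mbtps2). Of all 9882 genes, 830 were called lower and 785 higher in that fit. Ern1, the gene of IRE1, had no entry. In Tut1f/f;Trp53f/f;Cre against Trp53f/f;Cre the medians of the 4 lists were -0.04, -0.04, 0.31 (sensors and factors) and 0.11 (translocation and glycosylation), against -0.03 for the 10 genes and 0.03 for all genes. In the additive fit no gene of these lists was called for Tut1 or Trp53.

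**Figure D5:**
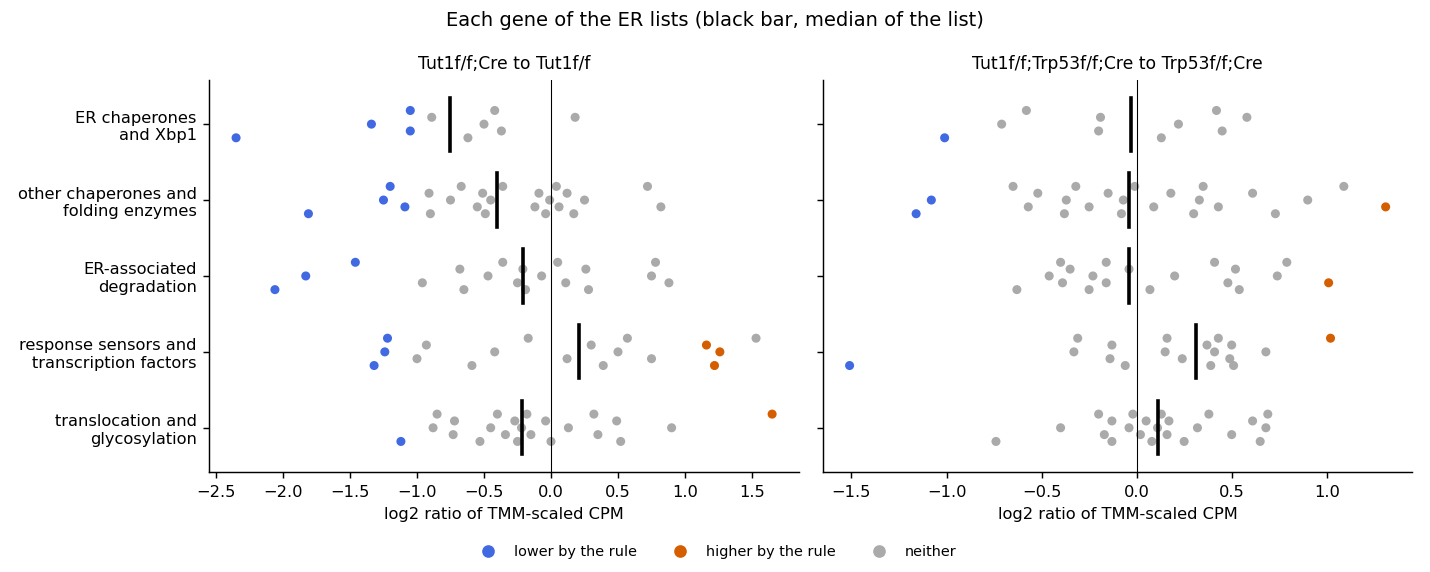
Log2 ratio of TMM-scaled CPM (horizontal axis) of each tested gene in 5 ER lists, in Tut1f/f;Cre to Tut1f/f (left) and Tut1f/f;Trp53f/f;Cre to Trp53f/f;Cre (right); black bars are list medians and colours mark genes past the ratio rule. On the left the median of the 10 genes is -0.75 and that of the sensors and factors 0.21, and on the right the medians are -0.03 and 0.31.

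Hspa5 and Xbp1 were also compared with 5584 other genes of at least 50 reads on average, by the root mean square difference of their centred log2 CPM over the 4 libraries. The profiles nearest to Hspa5 were Atp6v0d1 (0.0160), Appl2 (0.0353), Mrps23 (0.0390), Napa (0.0425) and Yif1b (0.0465), and of the 10 genes described here the nearest was Hsp90b1 at 0.401, rank 1393. Herpud1 and Hyou1 had too few reads to be ranked. Nearest to Xbp1 were Rnaseh2c (0.0919), Fam213b (0.100), Selenom (0.105), Gm13292 (0.112) and, at rank 5, Sdf2l1 (0.119), with Creld2 at rank 43 (0.213) and Hspa5 at rank 2549 (0.580). Over 4 libraries such distances describe the order of levels only.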

How the data were processed

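Neural stem cells of 4 genotypes were sequenced as Nanopore cDNA-PCR libraries, 1 per genotype. The authors deposited an isoform table of raw read counts, whole numbers without normalization, on mm10 per the labels. The aligner and counter of this table are not given in the sources used here; minimap2 and FLAIR are named by the study for long reads from embryonic pallium. Reads that named no gene (17.2% to 30.2%) stayed out of library sizes and tests. Symbols came from GENCODE M21, and isoform counts were summed per gene. Tests on gene counts used edgeR 4.0.16 under R 4.3.3 (quasi-likelihood fits, TMM, filterByExpr, Benjamini-Hochberg over 9882 genes), with DESeq2 1.42.0 as the alternative tool. Pairs of libraries were compared without a test, by the ratio of TMM-scaled CPM with its exact conditional binomial 95% interval. Isoform usage was compared with Fisher's exact test, where the isoform had 10 or more reads in the pair and its gene 20 or more in each library. Scripts were tested on simulated data. Promoters came from RefSeq (GRCm38.p6). Intervals and figures were made in Python 3.11.15 with scipy 1.17.1 and matplotlib 3.10.9.

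The genes, lists and tests were chosen with earlier results of these data known. Named were the 10 genes, their isoforms with 20 or more reads in total and at least 5% of the gene's reads in a library, the targets Tut1 and Trp53, in each ER list up to 4 genes with the largest ratio in Tut1f/f;Cre past the rule at a mean of 50 reads, and the 5 profiles nearest to Hspa5 and Xbp1. Other names were chosen after their values were seen. A treatment with U6 snRNA mentioned for the series was not analysed here. Alternatives were other scalings, filters, folds, tools, sets of isoforms and left-out libraries.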

Additional observations from a re-analysis of the deposited data

Results flagged for a closer look

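Log2 ratios by Tut1 label had opposite signs in cells with and without loxP alleles of Trp53 for Hspa5, Pdia4, Hsp90b1 and Calr. The log2 ratio in Tut1f/f;Trp53f/f;Cre to Trp53f/f;Cre exceeded that in Tut1f/f;Cre to Tut1f/f by 1.92 for Hspa5, 0.84 for Pdia4, 0.63 for Hsp90b1 and 0.59 for Calr. With 1 library per group the difference was not tested, and 16.6% of all genes went in opposite directions in this way. The libraries lower in each pair, Tut1f/f;Cre and Trp53f/f;Cre, are also those with Xist reads, so the sex of the cells and the genotype cannot be told apart here.

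Reads that named no gene were also counted at these loci, outside the measurements above. At the Herpud1 locus, which overlaps 1 other annotated gene, they numbered 4, 19, 6 and 4, a log2 ratio of 2.64 (1.05 to 4.66) in Tut1f/f;Cre, opposite to that of the named gene. At the Manf locus, which overlaps 4 other genes, they numbered 143, 148, 174 and 114, with log2 ratios of 0.44 (0.10 to 0.78) in Tut1f/f;Cre and 0.47 (0.15 to 0.80) in Trp53f/f;Cre. Positions were those in the entries' names, which mark bins rather than bases, so a read could lie just outside the gene.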

How the results depend on the processing

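No paired analysis was possible because each genotype has 1 library. Precision was set by depth: Herpud1, Hyou1 and Xbp1 had at most 114, 76 and 174 reads in a library. Among recomputed counts of genes or isoforms past a threshold, 78 stayed within 1.5 times and 19 did not. The 78 include counts that were 0 in both settings, as for Tut1 and Trp53 status. They also include the ratio rule without the filter on low counts, which could not change because every gene described here passed that filter. The tally is therefore no measure of stability. Under total gene reads the genes past the ratio rule were 2 in Tut1f/f;Cre to Tut1f/f and 0 in Tut1f/f;Trp53f/f;Cre to Trp53f/f;Cre, and 0 translocation and glycosylation genes were lower. At 1.5-fold they were 6 in Tut1f/f;Trp53f/f;Cre to Tut1f/f, 2 against Trp53f/f;Cre and 1 in Tut1f/f;Cre to Trp53f/f;Cre. With plain Ensembl transcripts only, which drops the leading entries of Hspa5, Calr and Manf, 2 genes passed in Tut1f/f;Trp53f/f;Cre to Trp53f/f;Cre and 1 was called for Cre mRNA, and Calr, left with Calr-204 at 1 read in the control and 8 to 11 elsewhere, turned to 3.39 in Tut1f/f;Cre and 3.65 in Trp53f/f;Cre against Tut1f/f and to -0.22 in Tut1f/f;Trp53f/f;Cre against Trp53f/f;Cre. Leaving out a library with Cre mRNA gave between 1 and 4 genes called for Cre mRNA. Usage calls went to 0 at 20 points in each pair that had any. They were also 0 with plain transcripts only, which removes the Hspa5-201 entry, so that this says nothing about stability. With Ensembl transcripts and their variants, an alternative chosen after seeing the data, 2 isoforms were called in Tut1f/f;Cre to Trp53f/f;Cre.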
